A study of Pelodiscus sinensis with 8 samples.

Results

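The HOXD genes are transcription factor genes that lie side by side in a cluster, with HOXD13 at one end and HOXD1 at the other. In limb buds of other amniotes the genes at the HOXD13 end pattern the hand and foot. In mouse, digit I is marked by Hoxd13 with little transcript of the neighbouring Hoxd genes, which are found toward the posterior digits. Every row of the deposited TPM table whose symbol was HOXD followed by a number was taken, which gave 7 genes of 19328 in the table: HOXD13, HOXD12, HOXD11, HOXD10, HOXD4, HOXD3 and HOXD1. HOXD9 and HOXD8 had no row with a symbol and were not analysed here. RefSeq's annotation of the species (assembly ASM4963464v1) places the cluster between EVX2, next to HOXD13, and MTX2, next to HOXD1, with the genes in the order just given. That annotation has HOXD10 overlapping HOXD11 and HOXD3 overlapping HOXD4. The counted genes carry Ensembl identifiers, and whether those gene models overlap in the same way was not checked. The strand setting of the counting was not given in the sources used here, so reads of any overlapping pair could be split between its genes.

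The tissue was the webbing between the digits of wild type Chinese soft-shell turtle (Pelodiscus sinensis) embryos at Tokita-Kuratani stage 19, a stage of the series made for this species. There were 4 forelimb libraries, tagged "ICD" in the labels, and 4 hindlimb libraries, tagged "anti-ICD", with the tags not spelled out. Webs are numbered from web 1, which joins digits I and II, to web 4 at the other margin, and each web of each limb gave 1 library. Every library pooled 40 pieces from the left and right limbs of the same 20 embryos. The p-values below thus rest on pools and not on animals. No web of a limb had a second pool. In fits with web as a number, departures from a straight line count as spread. In the limb test, differences between webs count as well unless web number is fitted.

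Libraries held 53116512 to 65849337 counts, and 14386 genes, all 7 HOXD genes among them, had enough counts to be tested. The forelimb factor TBX5 and the hindlimb factor TBX4 each passed the limb test in the direction of the labels. PITX1, a hindlimb factor, passed with web number as a block (1.38 log2 units higher in the hindlimb, edgeR adjusted p = 0.014) but not without it. Its level in forelimb web 3, 97.2 CPM, stood above that in hindlimb web 1, 53.8 CPM. Of the markers of limb mesenchyme, PRRX1, PRRX2, TWIST2 and LMX1B were present in every library. HOXD genes took 0.0516% to 0.107% of all counts in a library, the least in web 1 of each limb.

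HOXD13 and HOXD12 were the abundant members. The levels that follow are TPM, which are scaled to gene length, so genes can be set side by side within the limits of the annotated lengths. HOXD13, which in mouse and human is needed for digit number and growth, stood at 172, 226, 238 and 209 TPM in forelimb webs 1 to 4. In hindlimb webs 1 to 4 it stood at 191, 219, 212 and 221 TPM. In each limb web 1 was the lowest, and the other 3 webs lay close together. HOXD12, the next gene of the cluster, stood at 141, 419, 607 and 559 TPM in forelimb webs 1 to 4 and at 159, 371, 523 and 532 TPM in hindlimb webs 1 to 4. It was below HOXD13 in web 1 of each limb and above it in the other 6 libraries. This crossing depends on the lengths: in CPM, which are not scaled to length, HOXD12 was above HOXD13 only in forelimb web 4 (503 against 500 CPM).

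HOXD11 and HOXD10 were lower and more steeply graded. HOXD11, which in mouse also shapes the forearm, stood at 0.339, 10.8, 42.8 and 48.1 TPM in forelimb webs 1 to 4. In the hindlimb it stood at 0.592, 8.30, 48.1 and 53.7 TPM. Web 1 was nearly free of it, with 12 counts in the forelimb and 19 in the hindlimb, against 1630 and 1783 counts in web 4. HOXD10 stood at 1.57, 3.9, 11.4 and 12.3 TPM in forelimb webs 1 to 4 and at 1.65, 5.0, 11.8 and 15.0 TPM in hindlimb webs 1 to 4. Both genes had a higher value in each web than in the one before it, in both limbs, and HOXD11 was below HOXD10 in web 1 and above it in webs 2, 3 and 4.

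The genes at the other end of the cluster were near the lower edge of what was counted. HOXD4 had 6 to 56 counts per library and 0.254 to 2.50 TPM, and its 2 highest libraries were forelimb webs 3 and 4. HOXD3 had 30 to 139 counts and 0.700 to 3.28 TPM, with its highest value in hindlimb web 1. HOXD1 had 14 to 60 counts and 0.266 to 1.10 TPM, and the lowest library of each limb was web 4. None of these 3 genes reached 4 TPM in any library, against a lowest value of 141 TPM for HOXD12.

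**Figure D1:**
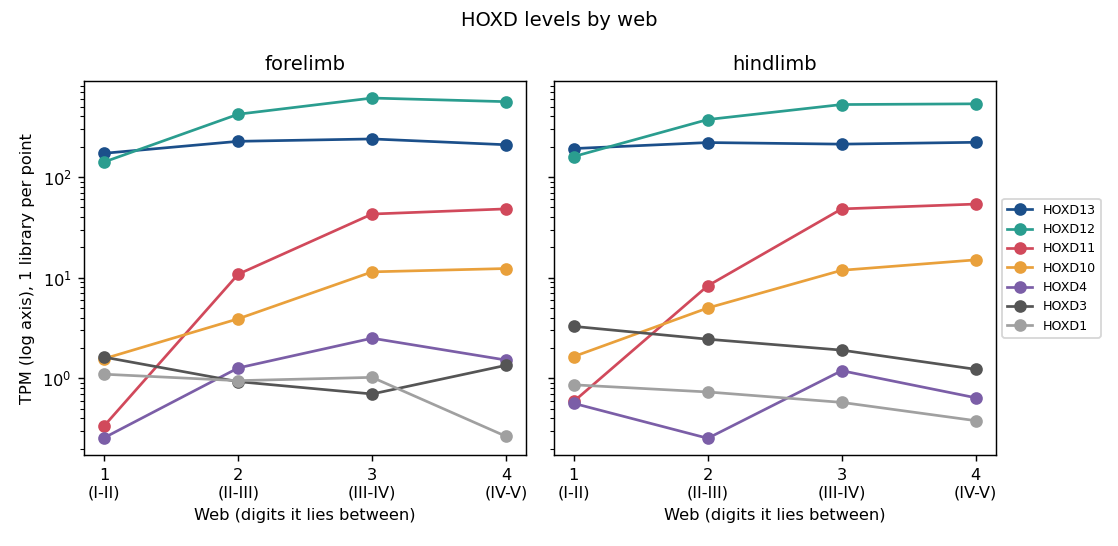
TPM (log axis) of the 7 HOXD genes against web number, forelimb on the left and hindlimb on the right, with 1 library per point and lines joining the webs of a limb. HOXD12 crosses above HOXD13 between web 1 and web 2, HOXD11 climbs from 0.339 to 48.1 TPM in the forelimb and from 0.592 to 53.7 TPM in the hindlimb, and HOXD4, HOXD3 and HOXD1 stay under 4 TPM, with HOXD11 below HOXD3 and HOXD1 in web 1 of both limbs.

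Expression was then followed along the hand and foot. HOXD12, HOXD11 and HOXD10 rose toward web 4, and the other 4 members did not pass the test. The slopes were 0.63 ± 0.111, 1.97 ± 0.317 and 1.08 ± 0.122 log2 units per web (SE; edgeR quasi-likelihood test with limb as covariate, n = 8, Benjamini-Hochberg adjusted p = 0.0041, 0.0023 and 0.00028). Of all 14386 genes 11.1% passed, 4.48% rising and 6.65% falling. HOXD13 had a slope of 0.10 ± 0.036 (adjusted p = 0.12), HOXD4 of 0.51 ± 0.32, HOXD3 of -0.24 ± 0.156 and HOXD1 of -0.43 ± 0.216 (adjusted p = 0.36, 0.38 and 0.25). The slope of HOXD11 was the second highest of all tested genes, and HOXD10 ranked 27 and HOXD12 104. With a robust prior the HOXD12 and HOXD11 calls ended (adjusted p = 0.06 and 0.053), and DESeq2 called HOXD13 higher (adjusted p = 0.048). The slopes were not even along the limb: without web 1 of both limbs they were 0.26 for HOXD12, 1.20 for HOXD11, 0.82 for HOXD10 and 0.00044 for HOXD13, and without web 4 they were 0.97, 3.003, 1.43 and 0.17, with HOXD12, HOXD11 and HOXD10 past the threshold both times.

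Slopes did not follow the order of genes along the chromosome. They increased from HOXD13 through HOXD12 to HOXD11, were lower again in HOXD10 and HOXD4, and were below 0 in HOXD3 and HOXD1. The genes outside the cluster on either side, named for their place and not by the rule for other genes, had slopes near 0: EVX2, a homeobox gene next to HOXD13, had -0.09 ± 0.0981 (adjusted p = 0.61), the next gene LNPK had 0.00 ± 0.0309 (adjusted p = 0.96) and MTX2 had 0.02 ± 0.0427 (adjusted p = 0.87). EVX2 stood at 7.98, 12.3, 11.9 and 9.51 TPM in forelimb webs 1 to 4 and at 17.5, 15.4, 13.9 and 9.15 TPM in hindlimb webs 1 to 4, which is no common direction in the 2 limbs.

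**Figure D2:**
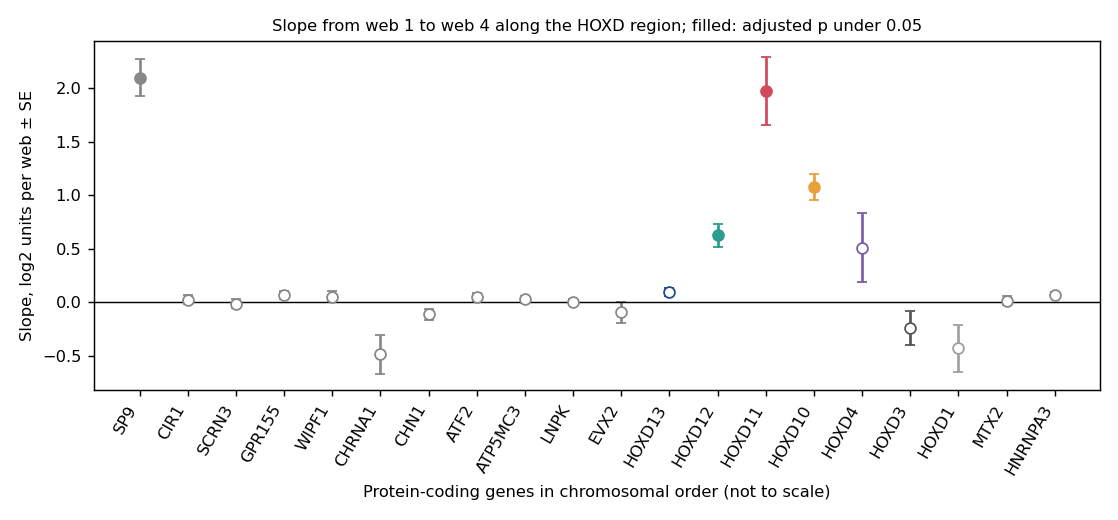
Slope with web number in log2 units per web, ± SE, for protein-coding genes in chromosomal order from SP9 to HNRNPA3 (RefSeq order, not to scale), with filled points for an adjusted p under 0.05. SP9 at 2.101 and HOXD12, HOXD11 and HOXD10 at 0.63, 1.97 and 1.08 are filled, and the 10 genes between SP9 and HOXD13 are open. Of all tested genes 11.1% passed.

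Steps between neighbouring webs showed where each gene changed. From web 1 to web 2, HOXD11 rose by a log2 fold change of 4.37 ± 0.247 and HOXD12 by 1.42 ± 0.0918 (edgeR quasi-likelihood test, limb as covariate, adjusted p = 7.5e-05 and 0.00012). Of the 14386 genes tested in that step these ranked 1 and 2 by p-value. HOXD10 rose by 1.48 ± 0.246 (adjusted p = 0.042) and HOXD13 had 0.33 ± 0.0852 (adjusted p = 0.16). These 3 called members of 7 compare with 0.188% of all genes called higher in the step. DESeq2 called HOXD13 in this step (adjusted p = 0.012). The HOXD10 call ended in 6 of the 8 leave-outs of 1 library, all but those of web 4 (adjusted p 0.093 to 0.23), while the HOXD11 and HOXD12 calls were kept in all 8.

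From web 2 to web 3, HOXD11 rose by 2.24 ± 0.174, HOXD10 by 1.38 ± 0.229 and HOXD12 by 0.51 ± 0.0899 (edgeR, adjusted p = 0.00029, 0.016 and 0.022), against 0.487% of all genes called higher, 1.14% called lower and 1.63% in either direction. HOXD13 had 0.01 ± 0.0851 (adjusted p = 0.98). Without web 2 or web 3 of either limb, the HOXD10 call (adjusted p 0.09 to 0.22) and the HOXD12 call (adjusted p 0.13 to 0.40) ended, and the HOXD11 call held in all 8 leave-outs. From web 3 to web 4 none of the 7 members passed, against 0.215% of all genes called higher and 0.361% lower. HOXD11 and HOXD10 had 0.22 ± 0.163 and 0.28 ± 0.221 in that step (adjusted p = 0.77 and 0.78), and HOXD12 and HOXD13 had 0.01 ± 0.0896 and -0.01 ± 0.0851 (adjusted p = 0.99 each). At an unadjusted p under 0.05, 0 of the 7 members and 1297 of the 14386 genes were called in the last step.

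**Figure D3:**
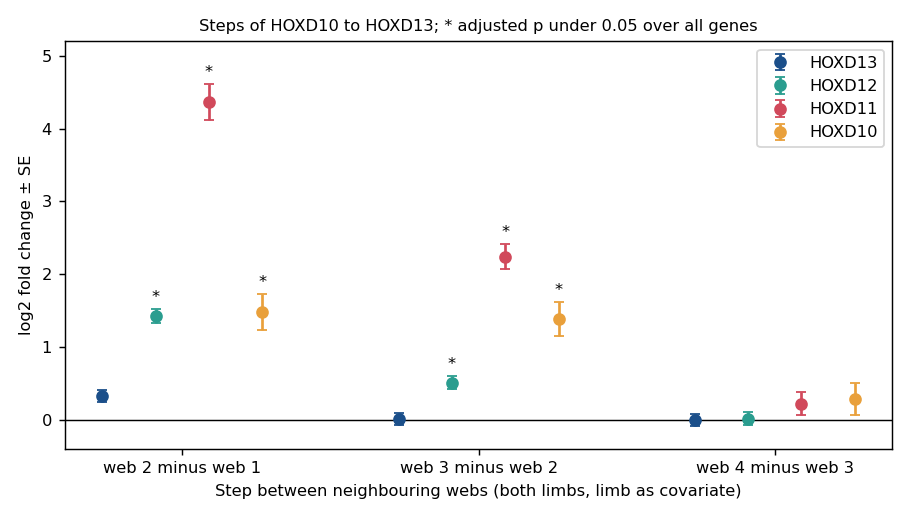
Log2 fold change ± SE of HOXD13, HOXD12, HOXD11 and HOXD10 in each step between neighbouring webs, from both limbs together, with an asterisk for an adjusted p under 0.05 over all genes. HOXD11 has the highest points in the first and second steps, 4.37 and 2.24, and all 4 genes lie within 0.3 of 0 in the last step.

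Each of the 4 genes HOXD13, HOXD12, HOXD11 and HOXD10 was also set against its own highest web in the same limb. HOXD13 was at 72.1% of its forelimb maximum and 86.7% of its hindlimb maximum already in web 1. HOXD12 was at 23.2% and 30.0% in web 1 and at 69.1% and 69.8% in web 2. HOXD11 was at 22.5% and 15.4% in web 2 and at 88.9% and 89.6% in web 3. HOXD10 was at 31.7% and 33.3% in web 2 and at 92.7% and 78.8% in web 3. The first web at or above 50% of the maximum was thus web 1 for HOXD13, web 2 for HOXD12 and web 3 for HOXD11 and HOXD10, in both limbs. In web 3 HOXD10 was the nearer to its maximum of the last pair in the forelimb and HOXD11 in the hindlimb. HOXD4, at low counts, first reached 50% in web 2 of the forelimb and web 3 of the hindlimb. HOXD3 and HOXD1, also at low counts, were above 50% already in web 1 of both limbs, so the order did not run along the whole cluster. This is a description of 4 libraries per limb and no test was made of it.

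**Figure D4:**
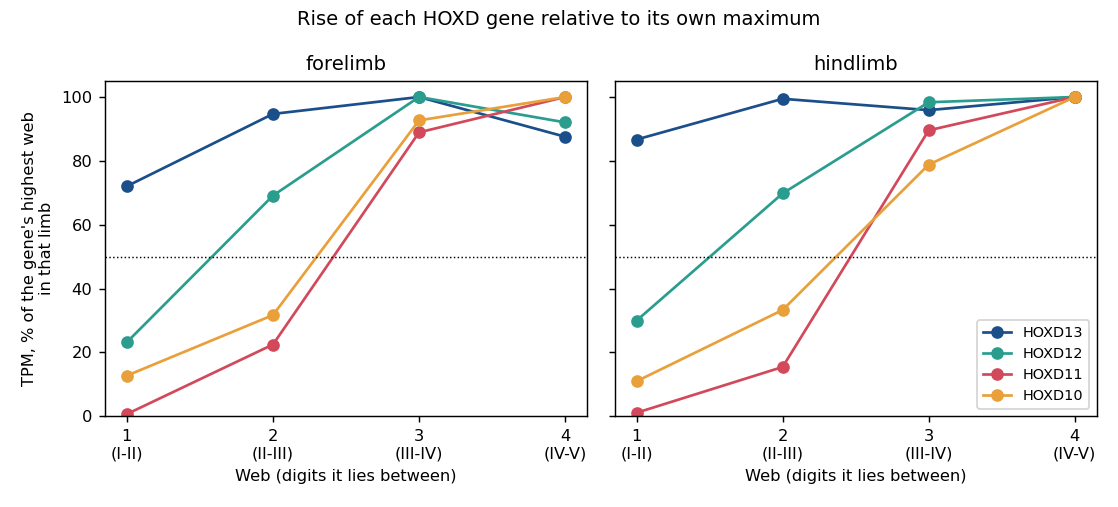
TPM of HOXD13, HOXD12, HOXD11 and HOXD10 as a percentage of the highest web of the same limb, against web number, 1 library per point, with a dotted line at 50%. HOXD13 is above the line from web 1, HOXD12 from web 2 and HOXD11 and HOXD10 from web 3, in both limbs.

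The mixture of HOXD transcripts differed between webs. Of the summed TPM of the 7 genes, HOXD13 made up 54.1% in forelimb web 1 and 53.5% in hindlimb web 1, and 25.1% and 26.8% in web 4. HOXD12 went from 44.4% and 44.6% in web 1 to 67.2% and 64.6% in web 4, and HOXD11 from 0.107% and 0.165% to 5.79% and 6.53%. The sum itself was 318 TPM in forelimb web 1 and 358 TPM in hindlimb web 1, against 607 to 904 TPM in the other 6 libraries. Per transcript of HOXD13, HOXD12 went from 82.1% and 83.4% in web 1 to 268% and 241% in web 4. HOXD11 went from 0.197% and 0.309% to 23.1% and 24.4%, and HOXD10 from 0.914% and 0.861% to 5.90% and 6.80%. On the log2 scale, the ratio to HOXD13 had slopes of 0.54 ± 0.109, 2.19 ± 0.391 and 0.99 ± 0.11 per web for HOXD12, HOXD11 and HOXD10, and of 0.49 ± 0.299, -0.36 ± 0.181 and -0.56 ± 0.124 for HOXD4, HOXD3 and HOXD1 (SE of a linear fit with limb, n = 8). The ratios between genes depend on the lengths used for TPM, by which HOXD13 was 2.66 times as long as HOXD12 and 3.75 to 3.87 times as long as HOXD11.

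Within each limb alone the gradients were close in size. In the forelimb the slopes were 0.67 ± 0.154 for HOXD12, 1.97 ± 0.433 for HOXD11 and 1.08 ± 0.176 for HOXD10 (edgeR, n = 4, adjusted p = 0.091, 0.076 and 0.031). In the hindlimb they were 0.58 ± 0.109, 1.98 ± 0.318 and 1.07 ± 0.152 (edgeR, n = 4, adjusted p = 0.011, 0.0052 and 0.0029). Of all genes, 2.12% passed in the forelimb test, 0.723% rising and 1.4% falling, and 7.48% in the hindlimb test, 3.33% rising and 4.15% falling. HOXD10 lost its forelimb call without forelimb web 1 (adjusted p = 0.094), and HOXD12 lost its hindlimb call without hindlimb web 1, where the slope was 0.25 (adjusted p = 0.076). The hindlimb slope of HOXD11 was 1.28 without hindlimb web 1 and 2.999 without hindlimb web 4, past the threshold in all 4 leave-outs. HOXD11 gained a forelimb call in 3 of 4 leave-outs (edgeR, adjusted p 0.0023 to 0.022) and HOXD12 also in 3 of 4 (adjusted p 0.0025 to 0.033). Their slopes in the 4 leave-outs ranged from 1.12 to 3.05 and from 0.27 to 1.04. A leave-out within 1 limb fits a line to only 3 libraries, so calls kept or gained there say little of stability.

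The difference in slope between the limbs was tested directly. No member passed, and the hindlimb slope exceeded the forelimb slope by -0.04 ± 0.0745 for HOXD13, -0.09 ± 0.232 for HOXD12, 0.08 ± 0.689 for HOXD11 and 0.00 ± 0.304 for HOXD10 log2 units per web (edgeR interaction test, adjusted p = 1 each). With web number as a block the standard errors were 0.0548, 0.0531, 0.146 and 0.16 and no member passed (adjusted p 0.88 to 0.99). Of all 14386 genes 0% were called in the test without a block, with 558 at an unadjusted p under 0.05, and DESeq2 called 1 gene. With the block 0.00695% passed, 1 gene with the lower slope in the hindlimb.

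The foot was also compared with the hand over all webs. Forelimb and hindlimb means were 478 ± 62.6 and 491 ± 46.2 CPM for HOXD13 (SD over 4 webs, n = 4 each), 369 ± 183 and 349.6 ± 157 CPM for HOXD12, 15.2 ± 14.3 and 16.8 ± 16.4 CPM for HOXD11, and 4.67 ± 3.52 and 5.48 ± 4.01 CPM for HOXD10. The limbs overlapped in every one of these genes. When the 2 limbs were matched by web (web number as a block), the log2 fold changes were 0.04 ± 0.0602, -0.03 ± 0.0636, 0.10 ± 0.131 and 0.24 ± 0.164 (edgeR, adjusted p 0.72 to 0.93). HOXD10 had its higher value in the foot in 4 of 4 webs, by 0.06 to 0.48 on the log2 CPM scale, without passing. HOXD3 means were 0.922 ± 0.348 and 1.81 ± 0.661 CPM, and it had a log2 fold change of 0.98 ± 0.389 with the block (adjusted p = 0.5), higher in 3 of 4 webs. HOXD4 had -0.91 ± 0.685 and HOXD1 -0.23 ± 0.496 (adjusted p = 0.76 and 0.94). None of the 7 members was called with or without the block, against 0.0209% of all genes without it (0.00695% higher in the hindlimb, 0.0139% lower) and 0.167% with it (0.0904% higher, 0.0765% lower).

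**Figure D5:**
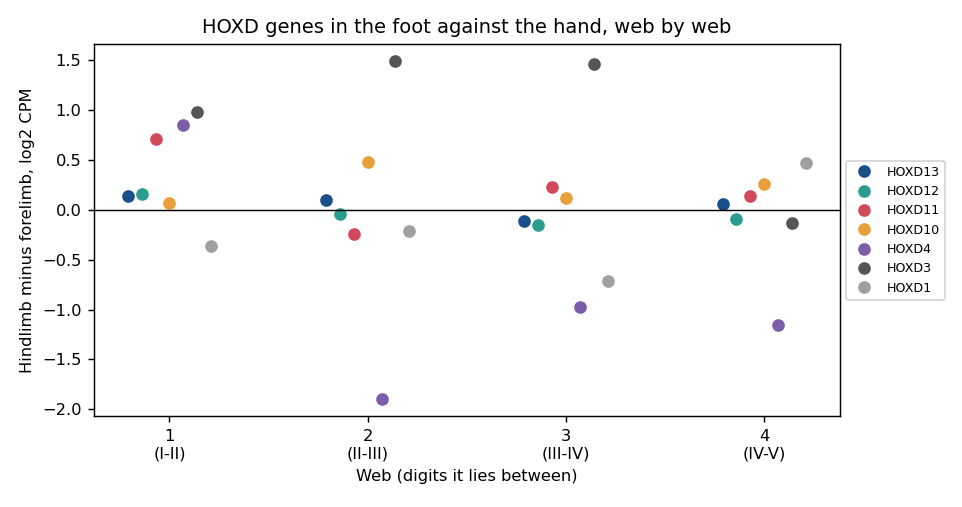
Hindlimb minus forelimb log2 CPM (prior count 2) of the 7 HOXD genes in each web, 1 pair of libraries per point. HOXD13 and HOXD12 stay within 0.16 of 0 in all 4 webs, while the low-count genes HOXD4 and HOXD3 scatter from -1.90 to 1.49.

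Genes around the cluster were examined from a list in chromosomal order. Of 13 listed genes on the HOXD13 side, 1 rose, 0 fell and 12 did not pass the web slope test, beside 4.48% of all genes rising, and the median slope was 0.03 against 0.00 for all genes. The one that rose was SP9, a zinc finger factor known from the ectodermal ridge of limb buds, whose CPM in forelimb webs 1 to 4 were 0.0670, 0.745, 1.19 and 11.6. In the hindlimb they were 0.0739, 0.660, 2.76 and 7.21, so web 1 was lowest and web 4 highest in each limb. Its slope was 2.101 ± 0.174 (adjusted p = 4.1e-05), and its steps were 3.29 ± 0.626, 1.47 ± 0.447 and 2.28 ± 0.431, none of which passed (edgeR, adjusted p = 0.066, 0.2 and 0.051). All 10 annotated protein-coding genes between SP9 and HOXD13 were tested and none passed, with slopes of -0.49 to 0.07 (edgeR, adjusted p 0.12 to 0.96). A count of 0 in 10 is near the 11.1% of all genes that passed. Of 4 genes listed on the HOXD1 side, NFE2L2, a factor of the oxidative stress response, fell (-0.20 ± 0.0251, edgeR adjusted p = 0.00056) and 3 did not pass. Their median was -0.01, and of all genes 6.65% fell.

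The other HOX clusters and HOX cofactors gave a point of comparison. Of 15 HOXA and HOXB genes under a symbol 14 were tested and none passed the web slope test (median 0.01), beside 11.1% of all genes. HOXA11 and HOXA10, the counterparts of HOXD11 and HOXD10 in the A cluster, had slopes of 0.20 ± 0.0595 and 0.20 ± 0.0601 (adjusted p = 0.051 and 0.055). HOXA11 and HOXA10 were named after their values were seen. HOXA3 had 0.10 ± 0.0599 and HOXA7 0.08 ± 0.052 (edgeR, adjusted p = 0.35 and 0.37), both below 0 without web 1 of both limbs. HOXA3 passed as rising in 1 of 10 settings other than leave-outs. HOXA7 was higher in the hindlimb with web number as a block (0.80, edgeR adjusted p = 0.016). Without the block it had 0.78 ± 0.127 and did not pass (edgeR adjusted p = 0.26). Of 10 TALE cofactors, homeodomain proteins that bind DNA together with HOX proteins, 8 were tested, 1 rose, 1 fell and 6 did not pass (median 0.02), beside 4.48% of all genes rising and 6.65% falling, so these counts are near the background. MEIS1 rose from 135 to 237 CPM between web 1 and web 4 (means of both limbs; slope 0.28 ± 0.0352, adjusted p = 0.0005). PKNOX2 fell (-0.24 ± 0.0582, adjusted p = 0.021), a call that ended when web 1 of the forelimb, or web 1 or 4 of the hindlimb, was left out (adjusted p 0.068 to 0.16).

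Lists of upstream and downstream genes were described in the same way. Of 15 hedgehog pathway genes, which act upstream of HOXD genes in limb buds of other amniotes, 10 were tested and 1 fell, near the 6.65% of all genes, the co-receptor CDON (-0.19 ± 0.0499, adjusted p = 0.029), a call that ended without forelimb web 4 or any 1 of the 4 hindlimb webs (adjusted p 0.061 to 0.11). GLI3, a repressor of HOXD genes in the anterior limb bud of the mouse, had -0.11 ± 0.0664 (adjusted p = 0.34) and was named after its value was seen. The median of the 10 was 0.02. Of 32 Polycomb, trithorax and chromatin architecture genes 24 were tested and 1 rose, the histone-binding subunit RBBP4 (0.12 ± 0.0245, adjusted p = 0.0082), with a median of 0.03. A count of 1 in 24 is near the 4.48% of all genes that rose. That call ended without hindlimb web 1 (adjusted p = 0.06). EZH2, the methyltransferase of Polycomb complex PRC2, had 0.03 ± 0.0282 (adjusted p = 0.58) and was named after its value was seen.

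Of 19 genes linked to HOX13 proteins in the mouse limb, 16 were tested, 5 rose, 2 fell and 9 did not pass (median 0.06), beside 4.48% of all genes rising and 6.65% falling. The list as a whole was chosen with earlier results of these data known, so these counts are a description only. MEIS1, SALL1 and EPHA3 of this list were also picked with their values known. The posterior factor HAND2 rose from 13.1 CPM in web 1 to 33.9, 71.7 and 89.4 CPM in webs 2 to 4 (means of both limbs). Its steps were 1.36 ± 0.0992 and 1.09 ± 0.0959 from web 1 to 2 and from web 2 to 3 (edgeR, adjusted p = 0.00023 and 0.00052), and 0.30 ± 0.0942 in the last step (adjusted p = 0.3). TBX2, a transcriptional repressor, BMP7 and FGF10, both secreted signals, and MEIS1 also rose, with slopes of 0.58, 0.45, 0.35 and 0.28. HAND2 was also higher in the hindlimb with web number as a block (0.57 ± 0.068, edgeR adjusted p = 0.012), and TBX5 of the same list was lower there. Without the block the HAND2 difference was 0.60 ± 0.639 and did not pass. SALL1, a zinc finger factor, and EPHA3 fell, with slopes of -0.50 and -0.47 (edgeR, adjusted p = 0.002 and 0.021), and EPHA3, an ephrin receptor, lost its call when web 4 of either limb was left out (adjusted p 0.064 to 0.09).

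Genes with the most similar pattern over the 8 libraries were sought among 9255 genes outside the HOXD cluster with a symbol and at least 2 CPM on average, by Pearson r of log2 CPM. For HOXD10 they were TMTC2, CPA6 and MEOX1 (r = 0.993, 0.992 and 0.991), for HOXD11 MTMR4, NEMF and ALDH4A1 (0.991, 0.985 and 0.983), for HOXD12 KLHDC9, ZNF207 and ALDH4A1 (0.986, 0.98 and 0.979) and for HOXD13 SLC41A3, USF1 and DDB1 (0.983, 0.978 and 0.974). Genes with an r over 0.95 numbered 75, 55, 38 and 17 for HOXD10, HOXD11, HOXD12 and HOXD13. The 3 named for each of these are thus a few of many. For HOXD4, HOXD3 and HOXD1 there were 3, 1 and 6 such genes. An r says nothing of size. CPA6, a carboxypeptidase, had a slope of 0.91 log2 units per web, near that of HOXD10, and MEOX1, a homeobox gene, 0.51, while MTMR4 and NEMF had 0.12 and 0.09 beside the 1.97 of HOXD11. For the low-count members they were DLG1, CHD9 and ATRX for HOXD4 (0.98, 0.957 and 0.952), ZNF511, SLC26A11 and TP53RK for HOXD3 (0.966, 0.936 and 0.935) and PKP2, ELFN1 and SOST for HOXD1 (0.97, 0.967 and 0.958). Among the members, r was 0.991 for HOXD12 and HOXD11, 0.977 for HOXD11 and HOXD10, 0.922 for HOXD13 and HOXD12, and -0.682 for HOXD10 and HOXD1. All of these r share the same 8 libraries.

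In such tissue, fewer cells of a type and less RNA per cell cannot be told apart, so markers of the cell types that the webs could hold are set beside the HOXD values. Epidermis markers (6 of 10 listed under a symbol) summed to 3788 and 2561 CPM in forelimb and hindlimb web 1, to 2058 and 1750 CPM in web 2, to 1118 and 1060 CPM in web 3 and to 1122 and 1084 CPM in web 4. Of these 6, KRT15 and DSP fell, TP63 rose (0.22, edgeR adjusted p = 0.014, lost without web 1 or 4 of the hindlimb at 0.063 to 0.096) and 3 did not pass. Of all genes, 4.48% rose and 6.65% fell. The fall of the sums lay mostly in KRT15 and DSP. In forelimb and hindlimb, KRT15 went from 2327 and 1559 CPM in web 1 to 401 and 370 CPM in web 4. DSP went from 855 and 539 CPM to 253 and 255 CPM. Mesenchyme markers (4 of 6) summed to 541 and 604 CPM in web 1 and to 674 to 797 CPM in the other 6 libraries. TWIST2 rose, PRRX1 fell and 2 markers did not pass, beside the same shares of all genes. PRRX1 lost its call without hindlimb web 4 (adjusted p = 0.083). Set against the mean log2 CPM of the 4 mesenchyme genes, the slopes were 0.60 ± 0.1 for HOXD12, 2.197 ± 0.36 for HOXD11, 1.03 ± 0.0921 for HOXD10 and 0.063 ± 0.0242 for HOXD13 (SE of a linear fit of log2 CPM with limb, n = 8). The edgeR slopes without this reference were 0.63, 1.97, 1.08 and 0.098, from a different fit. In the reference TWIST2 (slope 0.40) and PRRX1 (-0.30) offset each other, and PRRX2 and LMX1B had 0.02 and 0.01. A reference so near level could change the HOXD slopes only a little, so the comparison cannot decide on mesenchyme content.

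Muscle markers (4 of 7) summed to 287 and 516 CPM in web 1 and to 78.3 to 269 CPM elsewhere. Of these, 0 of 4 passed the web slope test, beside 11.1% of all genes. The most abundant were ACTC1 and TNNC1 (slopes -0.31 and -0.38). In the hindlimb alone all 4 fell: MYOG, ACTC1, TNNT2 and TNNC1 had slopes of -0.76, -0.56, -0.81 and -0.81 (edgeR, adjusted p = 0.037, 0.0066, 0.0052 and 0.0024), against 4.15% of all genes. In the forelimb alone none of the 4 passed (adjusted p 0.86 to 0.99). Without forelimb web 4, ACTC1 and TNNC1 also passed the web slope test (adjusted p = 0.0017 and 0.00049). Endothelium markers (5 of 5) summed to 61.4 to 122 CPM, lowest in web 4 of each limb, with PECAM1, CDH5 and SOX18 falling, beside 6.65% of all genes. Those 3 calls ended in 7, 5 and 6 of the 8 leave-outs. Cartilage markers (9 of 10) summed to 591 to 848 CPM, with COL2A1 rising and MATN4 and SOX9 falling, beside 4.48% and 6.65% of all genes. The calls of COL2A1, MATN4 and SOX9 ended in 1, 7 and 8 of the 8 leave-outs. The defining genes ACAN and MATN1, named for their zero counts, were at 0 in forelimb web 3. Erythroid markers (2 of 6) summed to 1254 to 2286 CPM in the forelimb and 667 to 1324 CPM in the hindlimb. In the web slope test 0 of 2 passed (HBZ -0.07 and SLC4A1 -0.16), beside 11.1% of all genes. In the hindlimb alone both fell (-0.30 and -0.46, edgeR adjusted p = 0.0032 and 0.0081), in the forelimb alone neither passed (adjusted p = 0.61 and 0.82), and without forelimb web 4 both passed the web slope test (adjusted p = 0.031 and 0.037). The part of the mesenchyme, epidermis, muscle, endothelium, cartilage and erythroid cells in the HOXD gradients was not tested.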

How the data were processed

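Pooled interdigital webbing was sequenced as 8 libraries, 1 per web and limb. The submitters' processing notes name HISAT2 2.2.1 and, for transcripts, StringTie 2.1.7. Genes in the deposited data carry Ensembl identifiers. Which genome build, annotation release and strand setting were used is not given in the sources used here. The authors deposited whole-number counts per gene, not normalised, and TPM per gene with symbols, a unit that corrects for gene length and depth. Of 20472 deposited count values from 1 to 40, 35.5% were multiples of 4, where an even spread would give 25%. The origin of this excess was not tested. The counts may therefore not be independent reads, and no counting interval is given. Even at a depth of 53116512 to 65849337 counts, HOXD4, HOXD3 and HOXD1 had few counts, which limits what can be said of them.

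Counts were tested in R 4.3.3 with edgeR 4.0.16 (quasi-likelihood, filterByExpr with limb as group, minimum count 10, minimum total 15, TMM factors of 0.973 to 1.02, Benjamini-Hochberg over 14386 genes at 0.05). CPM are TMM-scaled, and log2 CPM used a prior count of 2. HOXD ratios used log2 TPM with a pseudocount of 0.01. SE is the log2 change divided by the root of F. Residual degrees of freedom were 5 for the web slope, 6 for the limb test and 3 for the limb test with the block. They were 3 for the steps, 4 for the interaction without the block and 2 within 1 limb, and fewer in leave-outs. The interaction with the block had fewer than the interaction without it. DESeq2 1.42.0 and limma 3.58.1 on log2(TPM + 1) and log2(TPM + 0.1) were alternatives, with other scalings, no filter, a robust prior and leave-outs. The edgeR tests were tried on simulated counts.

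Web numbers pair the libraries by position, and all pools come from the same embryos. After removing each limb's mean, same-web libraries correlated across genes (Pearson r 0.498, 0.189, 0.242 and 0.327, web 1 first). Neighbouring webs of different number had r from -0.142 (forelimb web 2, hindlimb web 3) to 0.237 (forelimb web 3, hindlimb web 4). These r also hold the differences between webs, so they do not measure dependence between the pools. The web and step tests treat the 2 libraries of a web as independent, so their p-values may be too small.

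The members and lists were chosen with earlier results of these data known. Named genes were all HOXD symbols, the 3 genes most like each by Pearson r, and of each list up to 4 that passed with the lowest p or the 2 most abundant where none passed, and list genes past a limb or interaction test; others are marked. No sequences are shown.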

Additional observations from a re-analysis of the deposited data

Results flagged for a closer look

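HOXD1 in the forelimb had 1 library far from the other 3. Forelimb web 4 held 14 counts of HOXD1, or 0.256 CPM, against 0.834 to 1.005 CPM in forelimb webs 1 to 3, and its gap to the next library took up a share of 0.859 of the range of the 4 log2 CPM values. The 4 libraries are different webs and not repeats of 1 position, and chance alone flags about 1 in 20 such groups, of which 14 were examined. In the hindlimb web 4 was also the lowest, at 0.368 CPM, with no such gap (0.512).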

How the results depend on the processing

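Of the values recomputed under other settings, the web slopes of HOXD12, HOXD11 and HOXD10 kept their direction throughout, and in all 8 leave-outs of 1 library each remained past the threshold. With a robust prior the slopes of HOXD12 (0.63) and HOXD11 (1.97) no longer passed, and DESeq2 called HOXD13 for its slope (0.10) and for the step from web 1 to web 2 (0.33). The web slope calls of PKNOX2, CDON, RBBP4 and EPHA3 ended under 1, 4, 3 and 3 settings other than leave-outs. Among the cell markers, the calls of PECAM1, SOX18, CDH5, SOX9 and MATN4 ended under 6, 5, 4, 4 and 4 of 10 such settings. Those of COL2A1, TP63 and PRRX1 ended under 3, 3 and 2. The KRT15, DSP and TWIST2 calls were kept in all 10. Where a call changed, the cause was not tested. All changes below are log2 units, hindlimb against forelimb or higher web against lower.

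The number of genes called on the web slope was 1600 in the edgeR test and 1042 with limma on log2(TPM + 0.1). It was 681 without web 1 of both limbs, but above 1600 without web 4 of both limbs, from as many libraries. It ranged from 875 (without hindlimb web 1; 1014 without forelimb web 1) to 1889 with 1 library left out. Rising genes, 644, numbered 319 on log2(TPM + 1), 247 on log2(TPM + 0.1), 286 without web 1 and 322 to 842 in the leave-outs. Falling genes, 956, numbered 395 without web 1 and 553 to 1047 in the leave-outs. The count by limb, 3, was 18 by DESeq2, 6 on log2(TPM + 0.1), 5 with web as a number and 24 with the web as a replicate block, the fit that pairs the limbs. No HOXD gene changed its call under the block. The interaction count, 0, was 1 by DESeq2, 1 with the replicate block and 0 to 2 in the leave-outs. DESeq2 called 353, 494 and 265 genes in the steps, against 53, 234 and 83 by edgeR, and leave-outs gave 6 to 257, 37 to 395 and 8 to 115. Counts within the forelimb were 231 to 699 and within the hindlimb 418 to 1248 in the leave-outs.

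Leaving out 1 library changed the sign of several values that did not pass. Limb differences ranged from -0.047 to 0.11 for HOXD13, -0.37 to 0.19 for HOXD12, -0.40 to 0.70 for HOXD11 and -0.21 to 0.66 for HOXD10. Differences in slope ranged from -0.15 to 0.068 for HOXD13, -0.46 to 0.31 for HOXD12, -0.98 to 1.06 for HOXD11, -0.35 to 0.36 for HOXD10, -1.25 to 0.085 for HOXD4, -0.77 to 0.19 for HOXD3 and -0.29 to 0.46 for HOXD1, and HOXD11 had -0.094 on log2(TPM + 0.1). Forelimb slopes ranged from 0.27 to 1.04 for HOXD12, 1.12 to 3.05 for HOXD11, 0.88 to 1.43 for HOXD10 and -0.62 to 0.33 for HOXD3. Hindlimb slopes ranged from -0.0083 to 0.11 for HOXD13, 0.25 to 0.89 for HOXD12 and 1.28 to 2.999 for HOXD11. Web slopes over both limbs ranged from 0.25 (without forelimb web 1) to 0.76 for HOXD4 and from -0.49 (without forelimb web 4) to -0.15 (without hindlimb web 4) for HOXD3. The first step ranged from 1.32 to 1.65 for HOXD10 and -0.65 to 1.81 for HOXD4. The second ranged from -0.10 to 0.11 for HOXD13, 0.43 to 0.58 for HOXD12, 1.22 to 1.55 for HOXD10, -0.80 to 0.031 for HOXD3 and -0.49 to 0.21 for HOXD1. The last ranged from -0.10 to 0.10 for HOXD13, -0.063 to 0.093 for HOXD12 and -0.53 to 0.95 for HOXD3. Web slopes of HBZ and SLC4A1 ranged from -0.25 to 0.058 and from -0.41 to 0.0066. Without web 1 of both limbs the web slopes turned to -0.016 for USF1, -0.0053 for DDB1, -0.063 for HOXA3, -0.013 for HOXA7, 0.13 for ACTC1 and 0.087 for TNNC1. The leave-outs of the steps and of the slopes within a limb were chosen after seeing the data. With 2 libraries per web and at most 56, 139 and 60 counts of HOXD4, HOXD3 and HOXD1 in a library, little can be said of those 3 genes.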
